A study of Mus musculus with 20 samples.

Results

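The comparison set the hippocampus of mice that had received small RNAs (sRNAs) of schizophrenia patients against that of mice that had received sRNAs of control individuals, with both patient pools on 1 side. Of the 20 RNA sequencing libraries of the series, 15 entered the comparison by their labels: 5 Pool 1 mice, 5 Pool 2 mice and 5 Control mice, and each pool had the same weight in the mean of the patient side. The 5 Vehicle mice, which had received artificial cerebrospinal fluid, were on neither side and show where the leading genes lay without any infused RNA. They also entered the normalization and the common estimate of the spread, and so bear on the p-values. All mice were wild-type C57BL/6JOlaHsd males of 4 months with a bilateral cannula aimed at CA1, they had gone through the same behavioural tests, and the hippocampus was taken 24 hours after the last of them.

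The sRNAs had been purified from post-mortem hippocampus and combined before infusion, so the patient side consisted of 2 pools and the control side of 1. By the study's account the patients were mainly male, whereas the Control pool held both sexes. The RNA integrity numbers it gives are mostly lower for control donors than for patients. Diagnosis, donor sex and RNA integrity cannot be told apart in this comparison. The mice of a group shared their RNA source, and the p-values measure the spread between mice, not between donors. In bulk tissue, fewer cells of a type and less RNA per cell cannot be told apart. The libraries held 20588280 to 25543939 counts each, and the CA1 markers summed to 782 to 1481 CPM (counts scaled to library size) in Control, 747 to 1601 in Pool 1, 725 to 1299.8 in Pool 2 and 925 to 1259.8 CPM in Vehicle mice. Pool 2 replicate 1 stood apart by its genes of microglia, reactive astrocytes and interferon response, so the counts over all genes were repeated without it, and so were those of gene lists and classes where they are given.

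Small RNAs such as microRNAs guide Argonaute proteins to messenger RNAs with matching sites and lower their stability or translation, and many of them are abundant in the hippocampus, where they act on synaptic transcripts. The libraries were made from polyadenylated RNA. Ribosomal RNA, 7SK RNA and the mature microRNAs have no poly(A) tail, so they are counted only as far as they pass that selection. Processed pseudogenes, also called retrocopies, are copies of spliced messenger RNAs that were reverse transcribed and inserted elsewhere in the genome, and their reads can be told from those of the parent gene only where the sequences differ.

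A gene was called, as upregulated or downregulated, when its log2 fold change reached 0.3 in size and edgeR's quasi-likelihood test gave an unadjusted p under 0.05. Of 25190 genes, 502 were upregulated (1.99%) and 376 downregulated (1.49%) in the pools together against the Control group, and the median log2 fold change of all genes was 0.00. After Benjamini-Hochberg adjustment over all genes, 2 passed an adjusted p of 0.05 (0.00794%), both of them downregulated retrocopies of Eef1a1. Without Pool 2 replicate 1, 452 genes were upregulated (1.79%) and 435 downregulated (1.73%), of which 395 and 312 were shared with the calls over all mice, and 0 had the opposite direction. No gene then passed the adjusted p in edgeR, where the smallest was 0.0740 and 1349 genes had an unadjusted p under 0.05. With DESeq2, 12 genes passed an adjusted p of 0.05 without that library. Among the called genes whose mean normalized count was 10 or more, 168 protein-coding genes were upregulated with a median log2 fold change of 0.50 and 66 were downregulated with a median of -0.39. Genes under that count made up 286 of those upregulated and 238 of those downregulated. With Control replicate 4 left out, 607 genes instead of 376 were downregulated.

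The smallest p-values belonged to retrocopies of Eef1a1, the elongation factor that brings aminoacyl-tRNAs to the ribosome. Gm5869, a processed pseudogene at chr5:86997159-86998415 on the plus strand of GRCm38, was nearly absent from all 10 pool mice. Its 1257 bases were 96.3% identical to the Eef1a1 transcript, and 76.4% of the stretches as long as a read (50 bases) did not occur in Eef1a1. Gm13456 (chr2:40555752-40557116, plus strand) was 98.6% identical with 50.8% of such stretches, and Eef1a1-ps1 (chr19:17926623-17928009, plus strand) was 97.4% identical with 76.1%. The share of stretches that occurred in no other annotated transcript was lower, at 65.1% in Gm5869, 42.6% in Gm13456 and 63.5% in Eef1a1-ps1. A window of 60 bases from the coding region of Eef1a1 (chr9:78478449-78489151, minus strand) shows how a read is told apart, with the bases that differ from Eef1a1 in capitals. It was chosen as the window where Gm5869 and Gm13456 together differ most from Eef1a1, so it is not typical. Over the whole alignment, 46 of 1257 bases differ in Gm5869 and 19 of 1364 in Gm13456. The window has 5 differing bases in Gm5869 and 2 in Gm13456, and the transcripts are those of GENCODE release M21.
Eef1a1: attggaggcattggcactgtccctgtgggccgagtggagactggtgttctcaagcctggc
Gm5869: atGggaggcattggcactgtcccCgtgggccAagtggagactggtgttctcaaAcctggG
Gm13456: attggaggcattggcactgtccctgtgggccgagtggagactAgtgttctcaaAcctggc

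Gm5869 was measured at 4.74, 3.41, 3.13, 3.54 and 0.575 CPM in the Control mice. The Pool 1 mice had 0.0809, 0.0448, 0.0485, 0.172 and 0.0415 CPM and the Pool 2 mice 0.229, 0.0779, 0.125, 0.0417 and 0.172 CPM, which came from 1 to 5 reads per mouse. All pool mice lay below all Control mice, with a log2 fold change of -4.87 ± 0.68 (SE) and an edgeR adjusted p of 0.0237. The value was -5.21 for Pool 1 and -4.54 for Pool 2, which share the Control mice. The Vehicle mice had 2.91, 0.216, 0.202, 0.132 and 0.0931 CPM, so that 1 of them lay among the Control mice and the other 4 near the pool mice.

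Eef1a1-ps1 was measured at 8.23, 6.47, 4.46, 5.37 and 1.42 CPM in the Control mice and at 0.809 to 1.495 CPM in the pool mice. Of the 10 pool mice, 8 lay below all Control mice, and the log2 fold change was -2.13 ± 0.34 with an edgeR adjusted p of 0.0419. Gm13456 was measured at 24.8, 27.1, 20.7, 20.8 and 5.66 CPM in the Control mice and at 3.06 to 5.99 CPM in the pool mice. Here 9 of 10 pool mice lay below all Control mice, and the log2 fold change was -2.24 ± 0.37 with an edgeR adjusted p of 0.113. In all 3 retrocopies Control replicate 5 was the lowest Control mouse and Vehicle replicate 1 the highest Vehicle mouse, at 20.2 CPM of Gm13456. The parent gene Eef1a1 ranged from 1761 to 2333 CPM in the Control mice, from 1663 to 2474 CPM in the pool mice and from 1772 to 2136 CPM in the Vehicle mice, and its log2 fold change was -0.08 ± 0.09 with an unadjusted p of 0.356. Without any 1 of the 10 pool libraries or of Control replicates 1 to 4, 0 genes passed the adjusted p in edgeR, and without Control replicate 5 or Vehicle replicate 1 there were 3.

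**Figure D1:**
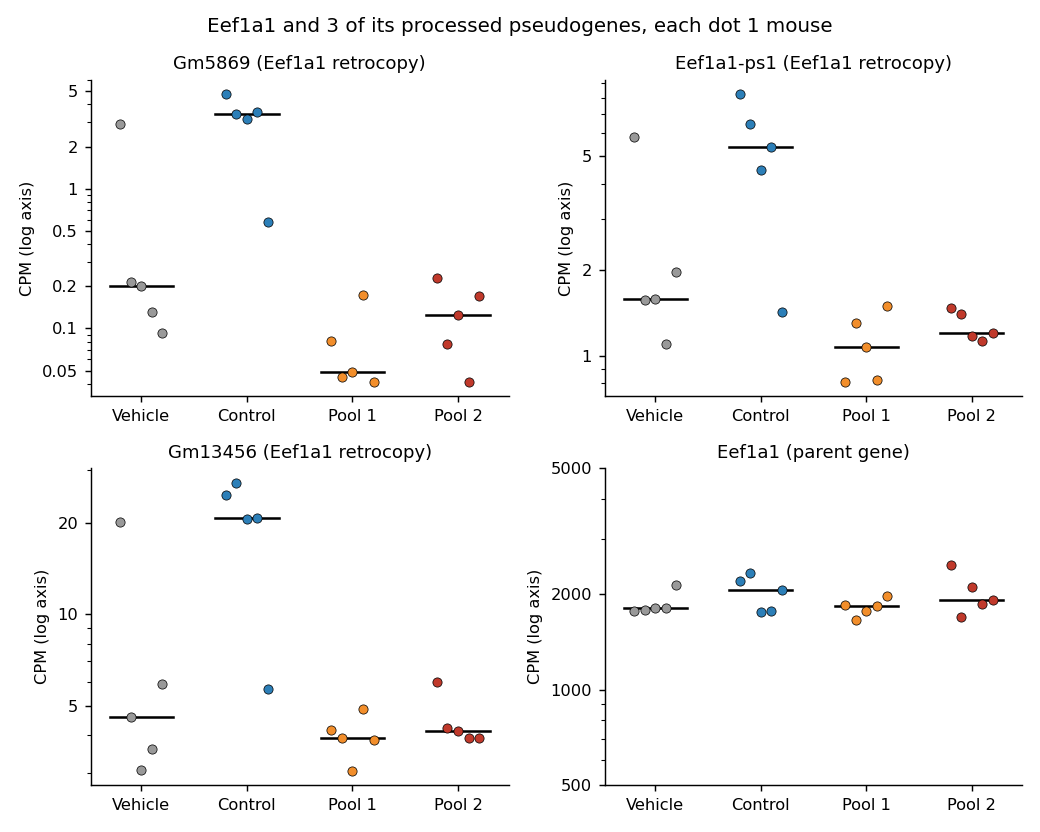
Expression in CPM on a log axis of Gm5869, Eef1a1-ps1, Gm13456 and their parent gene Eef1a1, with 1 dot per mouse and a bar at the median of each group of 5. In the 3 retrocopies 4 Control mice and 1 Vehicle mouse lie above the rest, whereas the groups overlap in Eef1a1.

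Of 14 measured retrocopies whose sequence was nearest to Eef1a1, 9 were downregulated (64.3%) and 0 upregulated, with a median log2 fold change of -1.32. The downregulated share was 1.49% over all genes and 7.52% over all processed pseudogenes. Summed over the 14, expression was 16.4 to 52.0 CPM in the Control mice, 10.4 to 21.9 CPM in the pool mice and 12.03 to 38.9 CPM in the Vehicle mice. Without the 3 named above, the sums were 7.75 to 14.3 CPM in the Control mice and 5.30 to 14.3 CPM in the pool mice, and these ranges overlap. The other 6 downregulated members, Gm6392, Gm6170, Gm4977, Gm6789, Gm7105 and Gm9512, had log2 fold changes from -1.84 to -0.92, and each had a mean normalized count under 10. The group was formed, and these members named, after the values of Gm5869 and Eef1a1-ps1 were known.

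Downregulated genes were also frequent among processed pseudogenes as a class. Of 2060 that were measured, 155 were downregulated (7.52%) and 33 upregulated, beside 1.49% and 1.99% over all genes, and their median log2 fold change was -0.21. Without Pool 2 replicate 1, 177 were downregulated and 27 upregulated, with a median of -0.24. Retrocopies of ribosomal protein genes numbered 389, of which 50 were downregulated (12.9%) and 6 upregulated, and their median log2 fold change was -0.48, while that of their parent genes was -0.15. Retrocopies of other genes had 78 of 1133 downregulated (6.88%) with a median of -0.18, and processed pseudogenes with no parent found had 27 of 538 (5.02%) with a median of -0.06. Among the 305 processed pseudogenes whose mean normalized count was 10 or more, 39 were downregulated (12.8%) and 4 upregulated. As an example, Rpl19-ps11, a copy of a ribosomal protein gene, was measured at 3.22, 3.25, 2.35, 2.35 and 1.81 CPM in the Control mice and at 1.48 to 2.33 CPM in the pool mice, 8 of which lay below all Control mice, with a log2 fold change of -0.57 ± 0.16. Processed pseudogenes other than those of Eef1a1 summed to 645 to 856 CPM in the Control mice, 567 to 756 CPM in the pool mice and 568 to 654 CPM in the Vehicle mice. Gm28437, an unprocessed pseudogene on chromosome 1, was measured at 6.39, 3.02, 6.26, 5.29 and 2.25 CPM in the Control mice and at 1.29 to 4.35 CPM in the pool mice, and its log2 fold change was -0.94 ± 0.26. Unprocessed pseudogenes as a class had 14 of 119 downregulated (11.8%) and 3 upregulated, with a median log2 fold change of -0.04.

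Genes with ribosomal RNA sequence, or known to collect its reads, were higher in the pool mice. All 9 measured genes of the rRNA-like list (10 listed), which was drawn up with earlier results of these libraries known and is no independent evidence of its direction, were upregulated, with a median log2 fold change of 2.18, and of 2.24 without Pool 2 replicate 1. Gm42418 at chr17:39846958-39848788 on the plus strand is annotated as a long non-coding RNA, and 94.9% of its read-length stretches occur, reversed, in CT010467.1, the ribosomal RNA annotated on the other strand. Gm23935 (chr16:11144125-11144181, plus strand), Gm24270 (chr9:56223715-56223771, minus strand) and Gm24245 (chr4:139338304-139338360, plus strand) are annotated as microRNA genes and have the same 57 bases, so their reads cannot be assigned to 1 of the 3 by this sequence. It is printed to show that identity, and beside it stands the mature microRNA of Mir6236 (RefSeq, GRCm38.p6, chr9:110281353-110281371, plus strand) with its seed, bases 2 to 8, in capitals.
Gm23935: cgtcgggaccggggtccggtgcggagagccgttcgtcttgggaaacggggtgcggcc
Gm24270: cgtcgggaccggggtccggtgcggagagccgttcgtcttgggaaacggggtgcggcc
Gm24245: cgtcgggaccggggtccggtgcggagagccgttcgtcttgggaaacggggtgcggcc
mmu-miR-6236: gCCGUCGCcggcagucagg

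Reads of 50 bases are longer than this mature microRNA of 19 bases, so the count of Mir6236 is not one of mature microRNA alone. Mir6236 was measured at 1.83, 0.873, 1.84, 1.03 and 2.12 CPM in the Control mice. It was at 13.8, 2.73, 2.43, 6.81 and 7.93 CPM in the Pool 1 mice and at 4.84, 2.999, 10.5, 7.64 and 7.603 CPM in the Pool 2 mice. All pool mice lay above all Control mice, with a log2 fold change of 2.13 ± 0.46, and the Vehicle mice had 5.52, 5.93, 2.54, 1.404 and 3.21 CPM. Gm23935 also had no overlap, at 12.2 to 34.9 CPM in the Control mice and 40.9 to 279.6 CPM in the pool mice, and its log2 fold change was 2.81 ± 0.61. Gm22009, a scaRNA gene on chromosome 3, was measured at 0.0921 to 0.357 CPM in the Control mice and 0.387 to 1.33 CPM in the pool mice, again with no overlap (1.94 ± 0.46). Gm42418 carried most of the reads of the list, at 847, 469.9, 1428, 644 and 1556 CPM in the Control mice. It was at 12400.0, 1511, 1775, 5460.0 and 9609 CPM in the Pool 1 mice and at 5317, 2963, 8307, 5322 and 6428 CPM in the Pool 2 mice, with a log2 fold change of 2.58 ± 0.62. The edgeR adjusted p of these genes was 0.884, whereas DESeq2 with the same contrast gave Mir6236, Gm23935 and Gm42418 an adjusted p of 0.00218, 0.000132 and 0.000467. The other genes at an adjusted p under 0.05 in DESeq2, 13 in all, were Gm24270, Lars2, Gm24187, Rn7sk, Gm26917, Gm15564, n-R5-8s1 and the 3 retrocopies Gm5869, Eef1a1-ps1 and Gm13456, and all but n-R5-8s1 (0.0982) remained with Pool 2 replicate 1 left out.

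Lars2, which encodes the mitochondrial leucyl-tRNA synthetase and is listed with the rRNA-like genes, was also called as upregulated. It was measured at 127, 81.9, 172, 95.2 and 235 CPM in the Control mice, 1203, 188, 207, 562 and 883 CPM in the Pool 1 mice and 529, 379.9, 1006, 576 and 696 CPM in the Pool 2 mice, and the log2 fold change was 2.13 ± 0.53. The Vehicle mice had 565, 499, 93.8, 157 and 235 CPM, and 8 of 10 pool mice lay above all Control mice. Pool 1 replicates 2 and 3 were the lowest pool mice in Lars2, Gm42418 and Gm23935. As a share of all counts, the 9 genes took 0.0565 to 0.186% in the Control mice, 0.172 to 1.37% in the Pool 1 mice, 0.352 to 0.962% in the Pool 2 mice and 0.0656 to 0.531% in the Vehicle mice. The ranges of Control and Pool 1 mice overlap, and those of Control and Pool 2 mice do not.

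**Figure D2:**
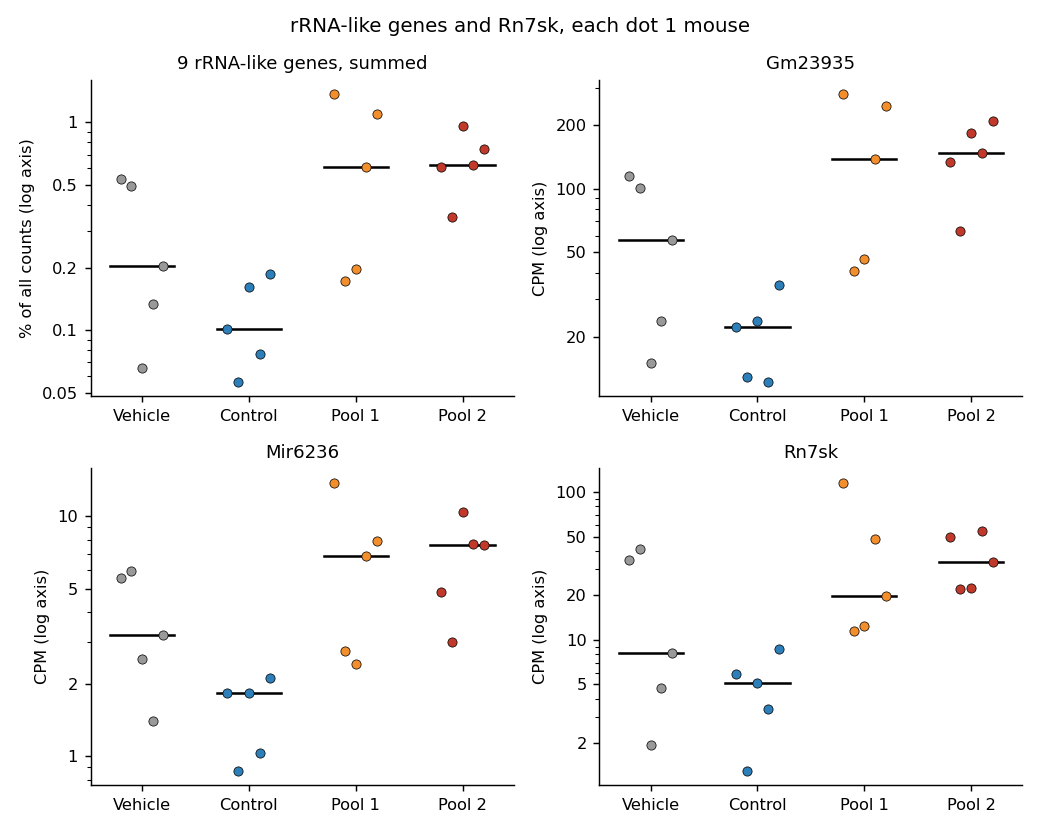
The summed share of counts of 9 rRNA-like genes (% of all counts) and the expression of Gm23935, Mir6236 and Rn7sk (CPM), all on log axes, with 1 dot per mouse and a bar at the median of each group of 5. In Gm23935, Mir6236 and Rn7sk all 10 pool mice lie above all 5 Control mice, and the Vehicle mice spread over both ranges.

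Rn7sk, the 7SK RNA that holds the transcription elongation factor P-TEFb inactive, was measured at 5.901, 1.31, 5.11, 3.42 and 8.62 CPM in the Control mice. It was at 115, 11.5, 12.4, 48.01 and 19.9 CPM in the Pool 1 mice and at 49.8, 22.2, 22.4, 54.8 and 33.7 CPM in the Pool 2 mice, with no overlap and a log2 fold change of 3.01 ± 0.80. The Vehicle mice ranged from 1.94 to 41.3 CPM. The annotated ribosomal RNA gene n-R5-8s1 had a log2 fold change of 2.68 ± 0.68 and the snRNA gene Gm24265 one of 2.70 ± 0.78, both with 9 of 10 pool mice above all Control mice. Among 309 small structural RNA genes, 23 were upregulated (7.44%) and 5 downregulated (1.62%), and among 223 annotated microRNA genes, 19 were upregulated (8.52%) and 3 downregulated (1.35%), beside 1.99% and 1.49% over all genes. The microRNA genes had a median log2 fold change of 0.14. With Pool 2 replicate 1 left out, 23 structural RNA genes were upregulated and 7 downregulated, and 16 and 3 microRNA genes. Genes of the biotype TEC, which await experimental proof, had 76 of 1460 upregulated (5.21%) and 9 downregulated. The part of poly(A) selection or of RNA quality in these differences was not tested.

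Groups without overlap were rare. In 15 genes all 10 pool mice were higher than all 5 Control mice (0.0595%), and in 6 all were lower (0.0238%). For 1 gene, 1 of the 3003 assignments of the mice puts all 10 higher, a share of 0.000333, and 1 puts all lower. The observed shares are of the same order as this one, above it on the higher side and below it on the lower side. A lack of overlap therefore does not by itself set a gene apart. Of the 15 and 6 genes, 12 and 4 were called. Mir6236, Gm23935, Gm22009, Rn7sk and, on the lower side, Gm5869, Mrpl32 and Anapc10 are described by their values here. The numbers were 24 and 9 with Pool 2 replicate 1 left out, where the assignments number 2002 and an order without overlap is easier to reach.

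The 10 upregulated protein-coding genes with the smallest p among those whose mean normalized count was 10 or more, Lars2 among them, had log2 fold changes between 0.30 and 2.13. Ccrl2, an atypical receptor that binds chemerin, was measured at 0.626, 0.674, 0.737, 0.437 and 0.531 CPM in the Control mice and at 0.631 to 2.33 CPM in the pool mice, 9 of which lay above all Control mice, and its log2 fold change was 0.92 ± 0.26. Gpx3, a secreted glutathione peroxidase, was at 2.19, 1.47, 1.24, 1.27 and 1.901 CPM in the Control mice, 1.09, 2.11, 1.699, 2.71 and 3.61 CPM in the Pool 1 mice and 5.07, 3.66, 5.75, 5.01 and 3.39 CPM in the Pool 2 mice. Its log2 fold change was 0.99 ± 0.28, with all Pool 2 mice above all Control mice and 1 Pool 1 mouse below them. Pabpc1l, a relative of the poly(A)-binding protein, was at 0.159 to 0.477 CPM in the Control mice and 0.243 to 0.974 CPM in the pool mice, with 9 of 10 above and a log2 fold change of 0.93 ± 0.28.

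Lamc3, a gamma chain of laminin in basement membranes, was at 4.05 to 6.08 CPM in the Control mice, 4.66 to 7.93 CPM in Pool 1 and 6.92 to 9.32 CPM in Pool 2 (0.53 ± 0.15). Bmf, a pro-apoptotic protein of the BCL2 family, was at 2.85 to 3.498 CPM in the Control mice and 3.32 to 6.35 CPM in the pool mice (0.52 ± 0.16), and 8 of 10 pool mice lay above. The Vehicle mice had 4.503 to 5.39 CPM of Bmf, also above all Control mice. Ehd4, which acts in endocytic recycling, was at 6.56 to 7.34 CPM in the Control mice, 7.04 to 7.71 CPM in Pool 1 and 8.71 to 13.4 CPM in Pool 2 (0.37 ± 0.11). Sh2d3c, an adaptor of adhesion signalling, Hps1, which takes part in the formation of lysosome-related organelles, and Smoc1, a secreted calcium-binding protein, had log2 fold changes of 0.31 ± 0.09, 0.32 ± 0.10 and 0.30 ± 0.09. In Smoc1 9 of 10 pool mice lay above all Control mice, in Sh2d3c 6 and in Hps1 5. Without Pool 2 replicate 1, Hps1 (0.30) and Smoc1 (0.29) were no longer called, and the other 8 were.

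The 10 downregulated protein-coding genes with the smallest p under the same minimum count had log2 fold changes between -0.39 and -0.31, and 3 of them, Mrpl32, Tmem126a and Immp1l, encode mitochondrial proteins. Mrpl32, a protein of the large mitochondrial ribosomal subunit, was measured at 22.1, 22.1, 19.4, 18.1 and 21.1 CPM in the Control mice. It was at 16.8, 17.4, 15.6, 17.8 and 15.5 CPM in the Pool 1 mice and at 16.04, 17.7, 17.6, 15.6 and 15.8 CPM in the Pool 2 mice, all below all Control mice, with a log2 fold change of -0.31 ± 0.08. Anapc10, a subunit of the anaphase-promoting complex, was at 11.1 to 13.2 CPM in the Control mice and 8.93 to 10.2 CPM in the pool mice, again with no overlap (-0.31 ± 0.08). Immp1l, a subunit of the inner membrane peptidase of mitochondria, was at 8.71 to 13.1 CPM in the Control mice and 6.89 to 10.3 CPM in the pool mice, with 7 of 10 below (-0.38 ± 0.12). The uncharacterized 2610001J05Rik was at 27.9 to 40.8 and 23.1 to 31.9 CPM, with 6 of 10 below (-0.34 ± 0.09).

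H3f3a, which encodes the replication-independent histone H3.3, was at 45.1, 50.6, 48.2, 35.4 and 51.1 CPM in the Control mice and 30.2 to 44.2 CPM in the pool mice, 4 of which lay below all Control mice (-0.34 ± 0.09). Med21, a subunit of the Mediator of transcription, Mtrr, the reductase that keeps methionine synthase active, and Zcchc10, a zinc finger protein, had log2 fold changes of -0.35 ± 0.09, -0.32 ± 0.10 and -0.39 ± 0.12. Tmem126a, an assembly factor of respiratory complex I, and Slc17a5, the lysosomal exporter of sialic acid, had -0.31 ± 0.09 and -0.31 ± 0.09. In Med21, Tmem126a, Slc17a5, Zcchc10 and Mtrr 2 to 4 of 10 pool mice lay below all Control mice. Without Pool 2 replicate 1, Tmem126a (-0.30) and Slc17a5 (-0.28) were no longer called. All 20 protein-coding genes had an edgeR adjusted p of 0.884, and for 9 of the 20 the call held whichever 1 library was left out.

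**Figure D3:**
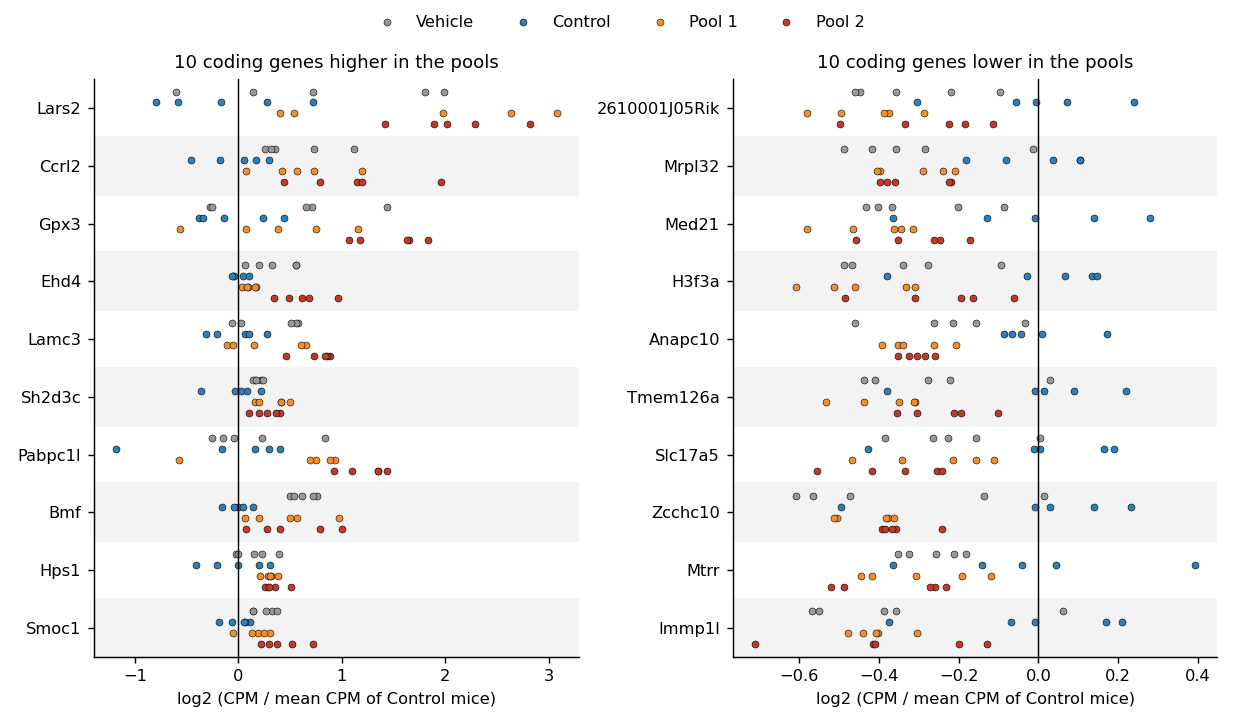
Expression of each mouse relative to the mean of the Control mice (log2 of the CPM ratio) for the 10 upregulated and the 10 downregulated protein-coding genes of smallest p at a mean normalized count of 10 or more, with 1 dot per mouse. Mrpl32 and Anapc10 have no overlap between pool and Control mice, and in all 10 downregulated genes the mean of the Vehicle mice is nearer to the pools than to Control or beyond the pools.

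The called protein-coding genes differed in length and base composition by direction. Among 14394 protein-coding genes at or above a mean normalized count of 10, the longest transcript had a median of 3482 bases, against 3992 bases for the 168 upregulated and 1546 bases for the 66 downregulated genes. The median GC content was 49.9% over all, 53.6% in the upregulated and 44.0% in the downregulated genes. Ranked by length into 4 bins of like size, the shortest bin, up to 2302 bases, had 27 upregulated (0.751%) and 44 downregulated genes (1.22%), with a median log2 fold change of -0.06. The bin of the longest transcripts had 5 downregulated (0.139%) and 61 upregulated genes (1.70%), with a median of 0.03. Mouse by mouse, the median deviation of the longest bin minus that of the shortest bin ranged from -0.46 to 0.23 in the Control mice, from -0.38 to 0.24 in the pool mice and from -0.28 to 0.23 in the Vehicle mice, on the log2 scale, so these ranges overlap. Whether length or GC content has a part in the calls was not tested.

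**Figure D4:**
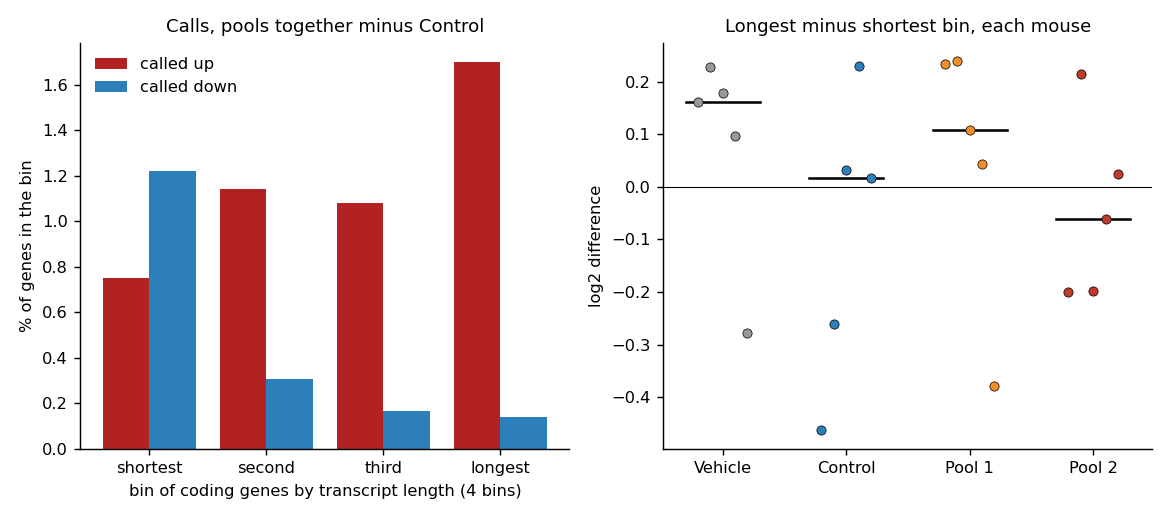
The share of protein-coding genes called up or down in the pools together (% of genes) by bin of transcript length, and the log2 difference between the longest and the shortest bin in each mouse, with 1 dot per mouse and a bar at the median. Downregulated genes make up 1.22% of the shortest and 0.139% of the longest bin, while the dots of all 4 groups overlap.

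Syt2, the calcium sensor of fast transmitter release found in parvalbumin interneurons, was the synaptic gene named by the study. It lies at chr1:134646677-134762593 on the plus strand and was measured at 26.3, 20.1, 20.1, 20.4 and 23.6 CPM in the Control mice. The Pool 1 mice had 20.03, 39.2, 26.2, 34.3 and 36.6 CPM and the Pool 2 mice 25.1, 26.8, 21, 29.1 and 48.5 CPM. Of the 10 pool mice, 6 lay above all Control mice and 1 below. The log2 fold change was 0.47 ± 0.20 with an edgeR unadjusted p of 0.0253 and an adjusted p of 0.884, and it was 0.50 without Pool 2 replicate 1. Permuting the 15 mice exactly, in all 3003 assignments and two-sided, gave p = 0.0430 (0.258 after adjustment over the 6 genes tested), and 0.0400 without Pool 2 replicate 1. Without Control replicate 2, 3 or 4 the edgeR p was up to 0.0595. The Vehicle mice had 37.03, 26.2, 30.1, 21.6 and 18.6 CPM and spread over both ranges.

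The other genes of the study's stainings and related synaptotagmins did not pass. Pvalb, the calcium-binding protein of the same interneurons, was at 18.6 to 43.1 CPM in the Control mice and 18.2 to 34.6 CPM in the pool mice, with a log2 fold change of -0.10 ± 0.18. Syt1, the calcium sensor of most forebrain synapses, and Syt11 had log2 fold changes of -0.01 ± 0.09 and -0.01 ± 0.07. Gfap, the intermediate filament of astrocytes, had 0.00 ± 0.19 for the pools together, which combined -0.49 for Pool 1 with 0.49 for Pool 2. Aif1, a marker of microglia, had 0.20 ± 0.36, and -0.22 without Pool 2 replicate 1, whose 29.7 CPM compared with 3.78 to 8.09 CPM in the Control mice.

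Synaptic gene groups had few calls. Of 36 genes of presynaptic release 1 was upregulated, Syt2 (2.78%, beside 1.99% over all genes), and 0 were downregulated. The median log2 fold change was 0.02, beside 0.00 over all genes. Of 20 interneuron genes the same 1 was called and the median was -0.07. Among 15 GABA receptor genes, 22 glutamate receptor genes, 19 activity-induced genes, 22 schizophrenia candidate genes and 17 genes of small RNA machinery, 0 were called in either direction, and their medians lay between -0.04 and 0.05. Those 5 lists had 0, 1, 0, 1 and 0 genes at an unadjusted p under 0.05, which 1375 of all genes (5.46%) passed. Of 29 genes of the postsynaptic density and spine, 0 passed the fold and 2 had an unadjusted p under 0.05, beside the same 5.46%. Named after their values were seen, Nlgn2, the adhesion protein of inhibitory synapses, had 0.20 ± 0.07 (unadjusted p = 0.00969) and Nrxn2, a presynaptic partner of neuroligins, 0.18 ± 0.07 (unadjusted p = 0.0144). The lists of circadian clock, glucocorticoid response and heat shock genes, with 16, 15 and 15 members, had 0 calls, and 1, 0 and 3 genes at an unadjusted p under 0.05.

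Gene groups of glia and innate immunity had more genes that differed between the pools with Pool 2 replicate 1 than without it. Over all genes, 2146 differed between Pool 2 and Pool 1 at an unadjusted p under 0.05 (8.52%), and 1388 (5.51%) with that mouse left out, a repeat of this contrast that was chosen after seeing the data. The 22 interferon response genes had a median log2 fold change of 0.54 for the pools together, with 0 calls and 0 genes at an unadjusted p under 0.05, from 0.01 for Pool 1 and 1.15 for Pool 2, and the median was 0.20 without Pool 2 replicate 1. Their sum was 489.8 CPM in that mouse, at most 174 CPM in the other 4 Pool 2 mice and 113 to 157 CPM in the Control mice. Of these genes, 15 differed between Pool 2 and Pool 1 at an unadjusted p under 0.05, all higher in Pool 2, and 3 did so with Pool 2 replicate 1 left out. Of 17 genes that sense foreign RNA, 2 were upregulated (11.8%), beside 1.99% over all genes. Zbp1, a sensor of Z-form nucleic acids, was at 0.134, 0.238, 0.184, 0.0398 and 0.221 CPM in the Control mice, 0.121, 0.224, 0.194, 0.733 and 0.0831 CPM in Pool 1 and 11.6, 0.506, 0.917, 0.542 and 0.301 CPM in Pool 2, with a log2 fold change of 2.37 ± 1.02, and of 1.24 without Pool 2 replicate 1. Ddx58, which encodes the RNA sensor RIG-I, had 0.39 ± 0.18, and with 0.23 it was not called without that mouse. The other 15 members were not called, and 10 of the 17 differed between the pools, or 2 with that mouse left out.

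Of 20 microglia genes 0 were called, with a median of 0.16, and of -0.03 without Pool 2 replicate 1, in which they summed to 2408 CPM against 649 to 1022 CPM in the Control mice. The other 4 Pool 2 mice had at most 1104 CPM. Of 19 reactive astrocyte genes 0 were called, and the median of 0.10 became -0.01 without that mouse. The reactive astrocyte genes summed to 2414 CPM in it, at most 1364 CPM in the other 4 Pool 2 mice and 727 to 1355 CPM in the Control mice. Between the pools 14 microglia and 15 reactive astrocyte genes differed at an unadjusted p under 0.05, all higher in Pool 2, and with that mouse left out 2 and 10 did so, again all higher in Pool 2. No gene of the microglia, reactive astrocyte or inflammatory lists had an unadjusted p under 0.05 in edgeR for the pools together. The 17 inflammatory mediators had 0 calls and a median of 0.40, or 0.10 without the same mouse, and the 13 genes of resting astrocytes had 0 calls and a median of 0.02.

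Lists of vascular, meningeal and oligodendrocyte genes had 1 or 2 calls each, beside 1.99% upregulated and 1.49% downregulated over all genes. Of 12 endothelial genes 1 was upregulated, Pecam1, an adhesion protein of endothelial junctions, with 0.34 ± 0.14. Of 12 genes of meninges and mural cells 2 were upregulated, Pdgfrb, the growth factor receptor of pericytes, with 0.31 ± 0.11 and Fn1, fibronectin of the extracellular matrix, with 0.54 ± 0.25. Of 14 oligodendrocyte lineage genes 1 was upregulated, Cspg4, the NG2 proteoglycan of precursor cells, with 0.31 ± 0.11. Of these 4, Pecam1 alone was called without Pool 2 replicate 1. Control replicate 3 was the lowest Control mouse in all 4. Without it the log2 fold changes of Pecam1, Pdgfrb, Cspg4 and Fn1 were 0.173, 0.215, 0.199 and 0.346. With 1 library left out, their edgeR unadjusted p reached 0.106, 0.0505, 0.0620 and 0.129. The meningeal list summed to 462 to 658 CPM in the Control mice, 382 to 958 CPM in Pool 1 and 451 to 1675 CPM in Pool 2, so the ranges overlap. Its median log2 fold change was 0.30 for the pools together, from -0.21 for Pool 1 and 0.75 for Pool 2. The endothelial list had a median of 0.19 and the oligodendrocyte list one of 0.01. Of the endothelial, meningeal and oligodendrocyte genes, 11 of 12, 10 of 12 and 7 of 14 had a log2 fold change above 0.

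Markers of neighbouring tissue also varied between mice. The 10 choroid plexus genes had 0 calls and a median of -0.81, and they summed to 125 to 2351 CPM in the Control mice, 99.7 to 1528 CPM in the pool mice and 219.9 to 9241 CPM in the Vehicle mice. The 11 thalamus genes had 0 calls and a median of 0.23, with sums of 151 to 312 CPM in the Control mice, 147 to 171 CPM in Pool 1 and 170.1 to 750.2 CPM in Pool 2, and 10 of them differed between the pools at an unadjusted p under 0.05, or 11 with Pool 2 replicate 1 left out, beside 8.52% and 5.51% over all genes. Of 7 neocortex genes 1 was downregulated, beside 1.49% over all genes. It was Lamp5, a membrane protein of cortical neurons, with -0.32 ± 0.10. The 8 CA1 and 10 dentate granule cell genes had 0 calls, and so had the 6 blood and 3 histone genes. The part of dissection in the results above was not tested.

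**Figure D5:**
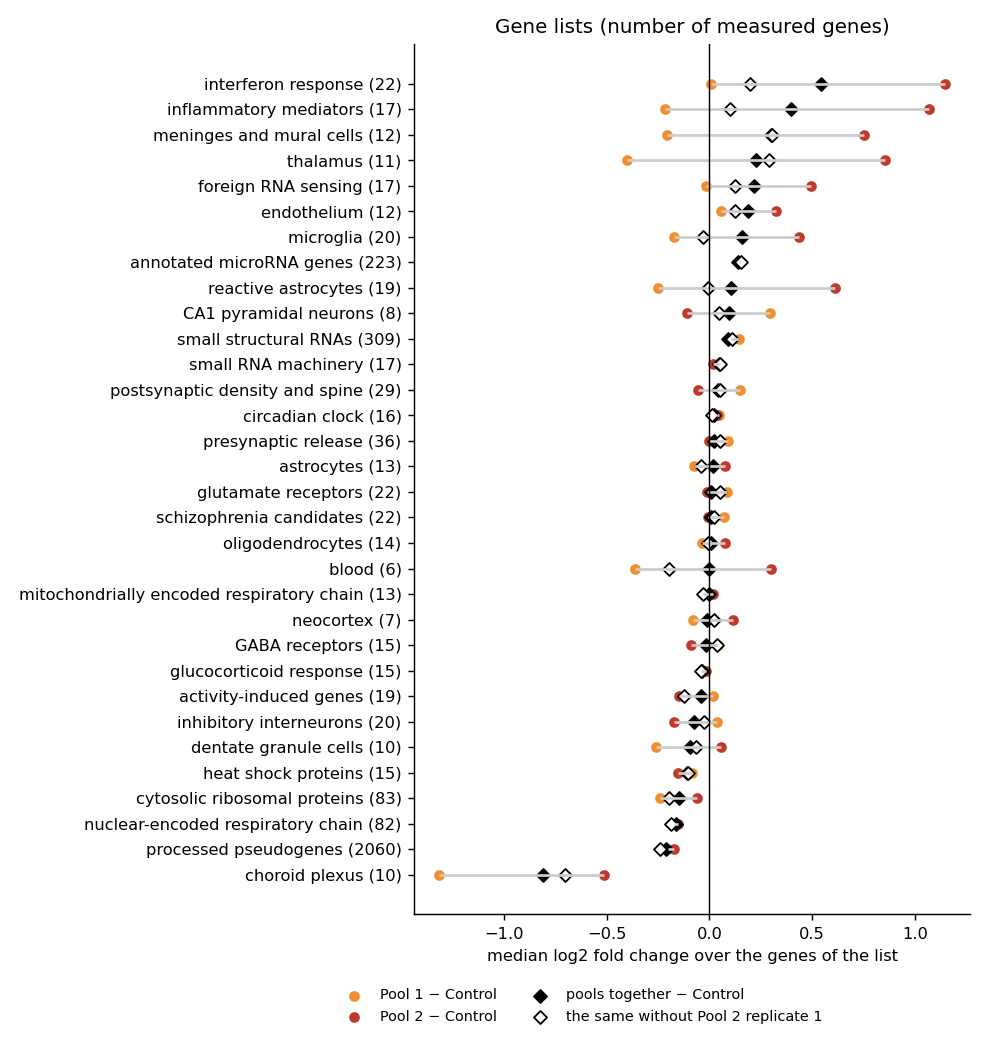
Median log2 fold change against Control over the measured genes of each list, for Pool 1, Pool 2, the pools together and the pools together without Pool 2 replicate 1. The pools lie on both sides of 0 for many lists, among them microglia, reactive astrocytes, thalamus, inflammatory mediators, and meninges and mural cells. Processed pseudogenes lie near -0.2 in both, and Pool 1 and Pool 2 share the Control mice.

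Gene groups of translation and respiration had medians below 0. The 83 cytosolic ribosomal protein genes had 0 calls, 4 genes at an unadjusted p under 0.05 and a median log2 fold change of -0.15, and without Pool 2 replicate 1 6 were downregulated with a median of -0.20. Summed, they were at 7802 to 12026 CPM in the Control mice and at 7463 to 12256 CPM in the pool mice, which overlaps. Of 82 nuclear-encoded genes of the respiratory chain 3 were downregulated (3.66%, beside 1.49% over all genes) and 0 upregulated. An unadjusted p under 0.05 was found for 12, beside 5.46% over all genes, and the median was -0.16. Cox7b, a subunit of cytochrome c oxidase, was at 164, 182, 142, 99.8 and 126 CPM in the Control mice and 95.5 to 130.2 CPM in the pool mice, 2 of which lay below all Control mice, with a log2 fold change of -0.33 ± 0.11. Uqcrb and Uqcrq, subunits of complex III, had -0.31 ± 0.12 and -0.31 ± 0.14. In the Control mice Cox7b, Uqcrb and Uqcrq averaged 142.6, 71.2 and 110 CPM. The pool means were 113.7, 57.3 and 88.8 CPM, and the Vehicle means were lower still, at 106, 55.6 and 82.4 CPM. With 1 library left out, the log2 fold changes ranged from -0.44 to -0.23, -0.42 to -0.21 and -0.44 to -0.19. The calls of these genes were lost in 3, 4 and 8 of 20 such fits. The 13 respiratory genes encoded in mitochondrial DNA had 0 calls and a median of 0.00.

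Because the contrast of Pool 2 with Pool 1 uses no Control mouse, it was used to compare the pools within the called genes. Over all genes 8.52% differed between the pools at an unadjusted p under 0.05, and the smallest edgeR adjusted p was 0.0896. Among the 878 genes called for the pools together the number was 107 (12.2%), of which 73 were upregulated genes (70 with Pool 2 higher) and 34 downregulated genes (13 with Pool 2 lower). With Pool 2 replicate 1 left out it was 77 of 887 (8.68%), beside 5.51% over all genes. Both pools had a log2 fold change above 0 in 501 of 502 upregulated genes and below 0 in 373 of 376 downregulated genes, a direction that the choice of genes largely fixes. Gpx3, Ehd4, Lamc3 and Smoc1 were higher in Pool 2 than in Pool 1, by log2 fold changes of 1.02, 0.53, 0.47 and 0.26 at edgeR unadjusted p-values of 0.00263, 0.000216, 0.0107 and 0.0194. With Pool 2 replicate 1 left out, these differences were 0.98, 0.43, 0.44 and 0.24 at unadjusted p-values of 0.00599, 0.00124, 0.0229 and 0.0408. For Gm5869, Eef1a1-ps1, Gm13456, Mir6236, Gm23935, Mrpl32 and Anapc10 the difference between the pools had an unadjusted p of 0.602 or more. In 682 genes the pools differed at an unadjusted p under 0.05 while the value for both together was under 0.1 in size, as in Gfap.

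The Vehicle mice were used to place the leading genes, and since Control values chose those genes, their position is a description. The Vehicle mean lay nearer to the pools than to Control, or beyond the pools, in 59.8% of the 502 upregulated and in 70.5% of the 376 downregulated genes. Among the 30 leading genes, taken by smallest p within direction and biotype at a mean normalized count of 10 or more, that held for 21, which were 6 of 10 upregulated and 10 of 10 downregulated protein-coding genes, and 1 of 5 upregulated and 4 of 5 downregulated genes of other biotypes. Mrpl32 was at 16.9, 14.7, 16.1, 15.4 and 20.4 CPM in the Vehicle mice, 4 of which lay below all Control mice. H3f3a was at 32.9 to 43.2 CPM and Anapc10 at 8.52 to 11.5 CPM in the Vehicle mice. Of the rRNA-like genes, Mir6236, Gm23935 and Gm42418 had Vehicle means between the Control and the pool means, and the Vehicle mice of Gm42418 spread from 544 to 4396 CPM.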

How the data were processed

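Bulk RNA of the hippocampus of 20 mice was measured, 5 mice per group, grouped by the sample labels. The authors made stranded poly(A) libraries, sequenced single-end reads of 50 bases in 2 rounds, aligned them to the mouse genome (GRCm38, mm10) with STAR, counted reads per gene with GENCODE annotation, and deposited raw counts without normalization, leaving out genes with few reads in total. The submitters' processing notes also list FastQC 0.11.5. The deposited unit is the count per gene, and both rounds are summed in it. Which strand column of STAR was used is not given in the sources used here.

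With edgeR 4.0.16 in R 4.3.3, TMM factors were computed and the quasi-likelihood test (robust estimation) was run on the counts, in 1 fit of 4 groups over all 20 libraries. The contrast was the mean of the Pool 1 and Pool 2 coefficients minus Control, and Pool 2 minus Pool 1 was tested in the same fit. Adjustment was that of Benjamini and Hochberg over 25190 genes. CPM values were scaled with the TMM factors. Single genes of the study were also tested by an exact two-sided permutation of the mice, with a smallest possible p of 0.000333. A floor of 3 counts corresponds to 0.117 to 0.146 CPM and covers counting error only. No replicate pair was 1 library deposited again, as a chi-square test of their counts gave 8.23 to 66.8 per degree of freedom.

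Named by rule were, among genes whose mean normalized count (DESeq2 size factors) reached 10, the 10 upregulated and 10 downregulated protein-coding genes and the 5 and 5 genes of other biotypes with the smallest p, all genes at an adjusted p under 0.05, up to 4 called members of each list, and Syt2, Syt1, Syt11, Pvalb, Gfap and Aif1. Other names, such as Eef1a1 and its minor retrocopies, Nlgn2, Nrxn2, CT010467.1 and some genes that passed in DESeq2, were chosen after their values were seen. The groups compared and the gene lists were chosen with earlier results of these data known, so lists are described by counts and medians, without a test. A retrocopy's parent was the coding gene that shared at least 20% of its words of 25 bases. Positions, transcripts and lengths came from GENCODE release M21, which held 99.8% of the genes, and mature microRNA sequence from RefSeq. Alternatives were DESeq2 1.42.0, limma 3.58.1 with voom, DESeq2's size factors in edgeR, filters on low counts, other fits of the groups, a block by replicate number, and each library left out. The contrast of Pool 2 with Pool 1 was repeated for lists and genes without Pool 2 replicate 1 after seeing the data. The edgeR fit with its contrasts and the rule for calls were tested on simulated counts, and the other steps were not. The same-number check gave a median correlation of deviations of 0.0897 (-0.303 to 0.265) over 15 pairs, with 7 above 0.1. Pairs of different number had a median of -0.0150 (-0.417 to 0.474) over 60, with 15 above 0.1. The ranges overlap, so the check does not settle whether the replicate numbers pair the mice. The labels name no pairing, and the main fit used none. The sRNA sequencing of human tissue was not analysed here.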

Additional observations from a re-analysis of the deposited data

Results flagged for a closer look

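In groups of 5 mice, a library was singled out where its gap to the nearest other mouse, as a share of the group's range, exceeded Dixon's critical value of 0.71. Of 156 groups tested 10 were, and chance gives about 1 in 20. Among the Eef1a1 retrocopies these were Vehicle replicate 1, high in Gm5869 (0.814), Control replicate 5, low in Gm5869 (0.796) and in Gm13456 (0.826), and Pool 2 replicate 1, high in Gm13456 (0.829). Pool 2 replicate 1 was also high in Zcchc10 (0.765), low in Syt11 (0.714), and high in the share of counts that fell on pseudogenes (0.751). Control replicate 5 was low in Syt11 (0.736), Pool 1 replicate 3 was low in Pabpc1l (0.828), and Pool 2 replicate 2 was low in Gm24270, with a ratio that rounds to 0.71 and lies above the critical value before rounding.

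The effect against Control differed between the pools, by the contrast of Pool 2 with Pool 1, in 7 of the 36 genes tested for it, at an edgeR unadjusted p under 0.05 and with no adjusted p under 0.05. Pool 2 was higher by a log2 fold change of 1.02 in Gpx3, 0.525 in Ehd4, 0.471 in Lamc3, 0.265 in Smoc1, 1.15 in Aif1 and 0.978 in Gfap, and the difference was -0.226 in Syt1. With Pool 2 replicate 1 left out, a repeat chosen after seeing the data, Gpx3, Ehd4, Lamc3, Smoc1 and Gfap kept an unadjusted p under 0.05 and Aif1 and Syt1 did not. The difference was then 0.70 in Gfap (edgeR unadjusted p = 0.000378), 0.31 in Aif1 (0.172) and -0.15 in Syt1 (0.155). That mouse had 29.7 CPM of Aif1 against 4.59 to 8 CPM in the other 4 Pool 2 mice, and 1401 CPM of Gfap against 504.5 to 836 CPM.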

How the results depend on the processing

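The 30 leading genes (10 protein-coding and 5 others in each direction, by smallest p at a mean normalized count of 10 or more) all kept an unadjusted p under 0.05 whichever 1 library was left out, and 19 kept the call, while 11 had a log2 fold change inside 0.3 in some fit. The 2 genes at an adjusted p under 0.05 became 13 with DESeq2, 12 with DESeq2 without Pool 2 replicate 1, 1 with limma voom, and 0 to 3 without 1 library. With the Control, Pool 1 and Pool 2 libraries only, edgeR gave 3, Gm5869, Gm13456 and Eef1a1-ps1, with a smallest adjusted p of 4.56e-06. The 502 upregulated genes became 229 with a minimum mean count of 10, 222 with filterByExpr, 331 with DESeq2 without Pool 2 replicate 1, and 425 to 599 without 1 library. The 376 downregulated genes became 136 and 171 with these filters, which test fewer genes, and 266 (without Control replicate 1) to 607 (without Control replicate 4). The 107 called genes that differed between the pools became 70 and 63 with these filters, 54 with DESeq2 without Pool 2 replicate 1, and 62 (without Control replicate 3) to 176 (without Pool 2 replicate 5). With the replicate number as a block, the counts were 460 up, 317 down, 1 at an adjusted p under 0.05 and 105 between the pools. Whether the numbers pair the mice was not settled.

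The log2 fold change of Syt2 was 0.354 to 0.544 without 1 library, and its edgeR p was above 0.05 without Control replicate 2, 3 or 4. Genes that were not called changed sign: Aif1 to -0.151 (voom) and -0.219 (DESeq2 without Pool 2 replicate 1), with -0.215 to 0.313 without 1 library, Gfap to -0.00113 (DESeq2), -0.00116 (DESeq2 size factors), -0.000156 (filterByExpr), -0.156 (voom) and -0.141 (DESeq2 without Pool 2 replicate 1), with -0.138 to 0.156, Syt1 to 0.0287 (voom) and 0.0243 (DESeq2 without Pool 2 replicate 1), with -0.0545 to 0.0419, Syt11 to 0.0350 and 0.0147 in the same fits, with -0.0594 to 0.0240, and Pvalb with -0.233 to 0.0924. The cause of these changes was not tested. At this depth 286 upregulated and 238 downregulated genes had a mean normalized count under 10, and all p-values measure the spread between mice that shared an RNA source.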
